A study of Culex quinquefasciatus and Culex pipiens molestus with 2 samples.

Results

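Helicases are enzymes that spend ATP to open or remodel paired strands of DNA or RNA, and 88 of the 16198 transcript models listed for female house mosquitoes carried a helicase name. A model was taken as a member when its product description held the word helicase or DEAD box and none of a set of terms for the replicative MCM complex, replication, recq, Bloom, repair, vasa, initiation factors and rad proteins, which left out 3 further helicase descriptions. By the same descriptions 46 members were RNA helicases, 11 were DNA helicases and 31 could not be split. The measurements are of polyadenylated RNA from females of 1 laboratory strain of Culex pipiens molestus and 1 of Culex pipiens quinquefasciatus, 30 females pooled into 1 library for each taxon. Molestus is a form of the house mosquito that can lay eggs without blood while quinquefasciatus females as a rule lay after a blood meal. Their age, feeding state and rearing are not stated in the labels.

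DEAD box proteins are named after a short run of amino acids in their ATP-binding core and act on RNA, in splicing, export from the nucleus, translation, ribosome assembly and decay. DNA helicases open the double helix for repair and recombination, and the chromodomain and lymphoid specific helicases use the same kind of motor to move nucleosomes rather than to separate strands. In insects many RNA helicases are abundant in the ovary, where maternal mRNA is made, transported and stored. Gene names below are the deposited descriptions, roles come from the named proteins in other species as background, and each CPIJ identifier stands for 1 model.

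Reads assigned to a single model amounted to 9.79 M (mega) in molestus and 10.17 M in quinquefasciatus. Levels are RPKM, read counts divided by model length in kilobases and by library depth, so levels of different models can be set side by side. With 1 library per taxon no difference below has a replicate check, a taxon and its library cannot be told apart, and no p-value was computed. Folds are ratios of RPKM, molestus over quinquefasciatus, and the range in brackets is an exact 95% interval that covers counting error only. The link from table to taxon is not in the labels, and every direction rests on matching the tables' abbreviations Cxm and Cxq to the taxon names.

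Helicase transcripts took a larger part of the molestus library, at 1.83% of its reads (1.82 to 1.84), than of the quinquefasciatus library, at 0.925% (0.919 to 0.931). The summed reads were 1.98-fold higher in molestus after allowing for depth (1.96 to 1.99). DNA helicases showed the larger gap, with 0.285% of molestus reads (0.282 to 0.289) and 0.0851% of quinquefasciatus reads (0.0833 to 0.0869), a 3.35-fold difference (3.27 to 3.44). That sum leaned on 1 chromodomain model, CPIJ004665, which held 14880 of the 27931 DNA helicase reads in molestus and 2871 of the 8650 in quinquefasciatus. RNA helicases held 1.23% (1.22 to 1.24) and 0.714% (0.709 to 0.720), a 1.72-fold difference (1.71 to 1.74). The median member stood at 29.2 RPKM in molestus and 14.1 RPKM in quinquefasciatus, where the median of all models was 6.30 and 6.38 RPKM. All models with a product description, as every member has, had medians of 9.18 RPKM in molestus and 8.64 RPKM in quinquefasciatus. Helicases thus lay above the typical model in both libraries. A level of 100 RPKM was reached by 14 members in molestus against 5 in quinquefasciatus, and the share of all models at that level is not given here.

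The same 5 RNA helicases were the most abundant members in both libraries, in a different order. In the molestus library the order was CPIJ000753 (1316 RPKM), WM6 (904 RPKM), CPIJ009286 (829 RPKM), p62 (636 RPKM) and CPIJ014935 (388 RPKM). In the quinquefasciatus library it was p62 (849 RPKM), CPIJ000753 (583 RPKM), WM6 (369 RPKM), CPIJ014935 (323 RPKM) and CPIJ009286 (147 RPKM). The order of CPIJ009286 and p62 was thus turned round, with CPIJ009286 above p62 in molestus and last of the 5 in quinquefasciatus, where p62 led. These 5 models held 40.7% of the helicase reads of molestus and 46.2% of those of quinquefasciatus. Without them the summed reads of the other members were 2.18-fold higher in molestus, so the excess did not rest on the most abundant models.

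**Figure D1:**
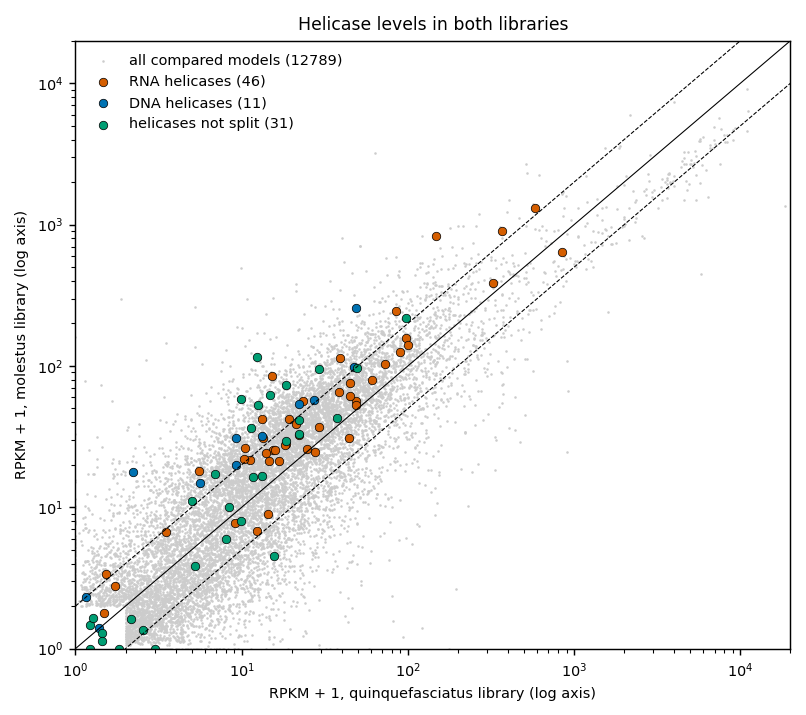
Level of each model in the molestus library (vertical axis) against the quinquefasciatus library (horizontal axis), as RPKM + 1 on log axes, with all 12789 compared models in grey and the 88 helicases coloured by class. The solid line marks equal levels and the dashed lines 2-fold, and most helicases lie above the solid line.

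For each model that reached 1 RPKM in either library, 80 of the 88 members and 12789 models in all, the log2 ratio of (RPKM + 1) was taken. Of the 80 helicases 34 (42.5%) were at least 2-fold higher in molestus, against 22.8% of all compared models. The reverse, at least 2-fold higher in quinquefasciatus, held for 2 helicases (2.5%), against 18.0% of all compared models. The median log2 ratio of the helicases was 0.77 (exact interval over members 0.58 to 1.09), against 0.18 over all compared models. Brackets after later medians likewise give an interval over the models of a list. Such an interval reflects how models differ from each other and is no measure of variation between libraries. The whole counting interval of the fold was above 2 for 26 of the 80 helicases (32.5%), against 16.7% of all compared models, and 1 helicase lay wholly beyond 2-fold the other way, against 12.8%. A 4-fold difference was reached by 8 helicases in the molestus direction (4.81% of all compared models) and by 0 in the other direction (3.97% of all).

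The balance moved with the scale. Rescaling by the median ratio of all models, a shift of -0.30 on the log2 scale, left 20 helicases at least 2-fold higher in molestus (25%), against 15.7% of all models, and these 20 also passed 2-fold in the other 3 rescalings tried. It left 3.75% higher in quinquefasciatus, against 23.0% of all. The ratio also varied with level, so the counts were read within bands of mean RPKM as well. Over all models the median log2 ratio was -0.30 from 1 to 10 RPKM, 0.46 from 10 to 30 and 0.59 from 30 to 100. At 100 RPKM and more it was 0.19. In the band of 10 to 30 RPKM, 11 of 28 helicases were at least 2-fold higher in molestus, against 27.7% of all models in that band, and 0 were higher in quinquefasciatus, against 13.6%. From 30 to 100 RPKM it was 12 of 24 helicases, against 31.2%, and 0 the other way, against 8.22%. At 100 RPKM and more it was 6 of 11, against 25.1%, and 0 the other way, against 16.0%. Over all members that reached 10 RPKM in either library, 47.1% of 68 were higher in molestus, against 29.0% of all models, and 1 was higher in quinquefasciatus, against 14.2%. In the lowest band, 1 to 10 RPKM, it was 4 of 13 helicases, against 15.2%, and 1 of 13 was higher in quinquefasciatus, against 25.7%. In each of the 4 bands the share of helicases that were higher in molestus exceeded the share of all models, which is a description and carries no test.

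The DNA helicases stood furthest to the molestus side. Of the 11 members 10 were compared, each at least 2-fold higher there, with a median log2 ratio of 1.29 (1.04 to 2.40). That count depends in part on the filter, since CPIJ009562 passed 1 RPKM only through its 8 molestus reads and CPIJ017760, with 2 reads in each library, was not compared. At a minimum of 10 RPKM it was 9 of 9, but CPIJ018413, CPIJ006071, CPIJ011452 and CPIJ003506 reached that level only in molestus. The count at 10 RPKM thus depends on the filter too. Of the 10, 5 passed 2-fold after rescaling by the median ratio and 6 after rescaling by trimmed mean of M-values (TMM) factors. Of the 45 compared RNA helicases 14 (31.1%, against 22.8% of all models) were at least 2-fold higher in molestus and 0 in quinquefasciatus, with a median of 0.69 (0.49 to 0.93). Rescaling by the median ratio left 7 RNA helicases higher in molestus, 15.6% against 15.7% of all models, so on that scale their share was that of the background, and 1 was higher in quinquefasciatus. The members that the description did not split spread most, from -1.79 to 3.25, with 10 of 25 higher in molestus, 2 of 25 higher in quinquefasciatus and a median of 0.67 (0.19 to 1.31). Among the 74 members with at least 50 reads in the higher library, the counting interval lay wholly above 1 for 61, wholly below 1 for 9 and held 1 for 4. That count is not given for all models, so it has no background beside it. By direction alone, 67 of the 80 compared helicases had a log2 ratio above 0 and 13 below. Over all 12789 compared models it was 7088 above and 5701 below.

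**Figure D2:**
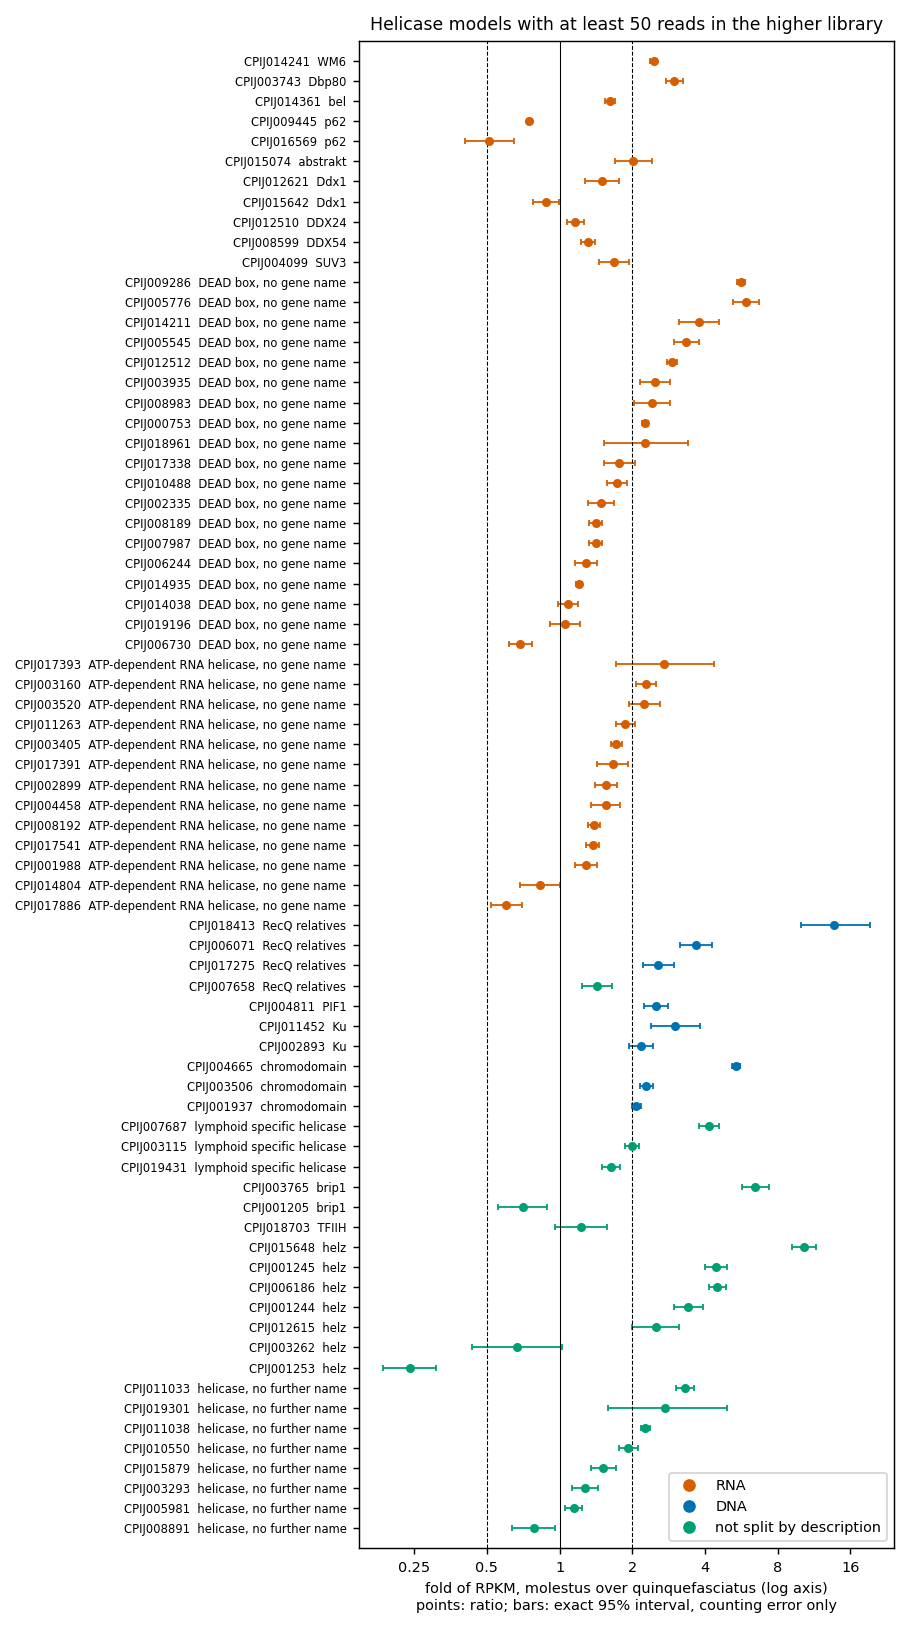
Fold of RPKM, molestus over quinquefasciatus, on a log axis for the 74 helicase models with at least 50 reads in the higher library, with exact 95% intervals for counting error as bars and the class as colour. The solid line marks 1 and the dashed lines 2-fold either way, and all the DNA helicases in blue lie to the right of 2 while the RNA helicases in orange run from 0.513 to 5.90.

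Among RNA helicases with a gene name, those of mRNA export were the furthest to the molestus side. WM6 (CPIJ014241), which in Drosophila couples splicing to the export of mRNA, had 904 RPKM from 11259 reads in the molestus library, against 369 RPKM from 4773 reads in the quinquefasciatus library. That is a 2.45-fold difference (2.37 to 2.54), which fell just under 2-fold after rescaling by the median ratio. Dbp80 (CPIJ003743), a Drosophila relative of the helicase that releases mRNA from its carriers at the nuclear pore, had 113 RPKM from 2264 reads in molestus, against 37.8 RPKM from 790 reads in quinquefasciatus, a 2.98-fold difference (2.74 to 3.23). Both export helicases were thus higher in molestus by more than the counting error. The list of export partners as first written, 37 compared models that include catalytic subunits of kinases and phosphatases, had a median log2 ratio of 0.66 (0.25 to 1.29), with 14 models (37.8%, against 22.8% of all models) at least 2-fold higher in molestus and 3 in quinquefasciatus. Tightened after its members were seen to the 9 export factor and THO complex models, it had a median of 1.32 (0.62 to 1.93), with 6 and 0.

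The p62 models were the exception among the abundant RNA helicases. In Drosophila p62, also called Rm62, takes part in transcription, splicing and RNA silencing. CPIJ009445 had 636 RPKM from 10833 reads in molestus and 849 RPKM from 15020 reads in quinquefasciatus, so that molestus stood at 0.749-fold of the quinquefasciatus level (0.731 to 0.768). The other p62 model, CPIJ016569, was far lower, at 5.80 RPKM from 113 reads against 11.3 RPKM from 229 reads, a ratio of 0.513 (0.405 to 0.645). Neither reached 2-fold on the log2(RPKM + 1) scale as deposited, CPIJ016569 did so in 3 of the 4 rescalings, and both lay below 1 by more than the counting error under every scaling tried.

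Helicases of translation and of other RNA steps lay between. Bel (CPIJ014361), which acts in the start of translation and is needed for fertility in Drosophila, had 156 RPKM in molestus and 96.4 RPKM in quinquefasciatus, a 1.62-fold difference (1.54 to 1.70). Abstrakt (CPIJ015074), a helicase of splicing and development in Drosophila, was low, at 20.5 against 10.2 RPKM, 2.02-fold higher in molestus (1.69 to 2.41) and just under 2-fold once the pseudocount is added. SUV3 (CPIJ004099), which unwinds RNA for decay in mitochondria, had 24.3 against 14.5 RPKM, a ratio of 1.68 (1.46 to 1.93). These 3 leaned to molestus without reaching the 2-fold call. DDX54 (CPIJ008599) and DDX24 (CPIJ012510), nucleolar helicases in human cells, differed little. The DDX54 model had 78.3 against 59.7 RPKM, a ratio of 1.31 (1.22 to 1.41), and DDX24 had 55.3 against 47.6 RPKM, a ratio of 1.16 (1.07 to 1.26) that fell below 1 after rescaling by the median ratio or without the most abundant models. The Ddx1 models, named after a helicase of tRNA ligation in human cells, went apart, with CPIJ012621 at 20.3 against 13.6 RPKM, a ratio of 1.49 (1.27 to 1.76), and CPIJ015642 at 23.6 against 26.7 RPKM, a ratio of 0.882 (0.779 to 0.998).

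The 22 models described only as DEAD box ATP-dependent RNA helicase carried the largest part of the helicase reads, 0.735% of the molestus library (0.730 to 0.740) and 0.345% of the quinquefasciatus library (0.341 to 0.348). Of 21 compared, 9 were at least 2-fold higher in molestus (42.9%, against 22.8% of all compared models). None was so in quinquefasciatus, against 18.0% of all, and the median log2 ratio was 0.78 (0.49 to 1.28). CPIJ009286 had 829 RPKM from 17109 reads in molestus and 147 RPKM from 3159 reads in quinquefasciatus, a 5.63-fold difference (5.42 to 5.84). CPIJ005776 had 84.1 RPKM from 1754 reads against 14.3 RPKM from 309 reads, a 5.90-fold difference (5.22 to 6.68). These models were the only RNA helicases past 4-fold on the log2(RPKM + 1) scale. The most abundant helicase of molestus, CPIJ000753, had 1316 RPKM from 21397 reads against 583 RPKM from 9848 reads, a 2.26-fold difference (2.20 to 2.31) that fell under 2-fold in 3 of the 4 rescalings. CPIJ012512 had 245 RPKM from 6734 reads against 84.2 RPKM from 2403 reads, a 2.91-fold difference (2.78 to 3.05).

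The remaining models of this name formed a graded series rather than separate groups. CPIJ014211 (17.1 against 4.53 RPKM) and CPIJ005545 (40.9 against 12.3 RPKM) stood further to the molestus side, with folds of 3.77 (3.13 to 4.56) and 3.34 (2.97 to 3.76). CPIJ003935 and CPIJ008983 had folds of 2.49 (2.16 to 2.87) and 2.41 (2.04 to 2.87), and passed 2-fold in 3 and 2 of the 4 rescalings. Most of the others lay between 1 and 2-fold. The abundant CPIJ008189 (139 against 98.5 RPKM) and CPIJ007987 (101.4 against 71.9 RPKM) had the same ratio of 1.41, and CPIJ014935 (388 against 323 RPKM) had 1.20 (1.17 to 1.23), which fell below 1 after rescaling by the median ratio. CPIJ014038 and CPIJ019196 had ratios of 1.08 (0.981 to 1.19) and 1.05 (0.912 to 1.21), intervals that held 1, and both fell below 1 in all 4 rescalings. The lowest was CPIJ006730, with 29.7 RPKM from 533 reads in molestus and 43.2 RPKM from 805 reads in quinquefasciatus, a ratio of 0.688 (0.615 to 0.768).

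The 13 models described as ATP-dependent RNA helicase with no gene name had 3 at least 2-fold higher in molestus, 0 in quinquefasciatus and a median log2 ratio of 0.61 (0.34 to 1.08). The 3 are 23.1%, near the 22.8% of all models. The 3 were CPIJ017393, a model of only 282 bases at 25.4 against 9.42 RPKM (2.69-fold, 1.70 to 4.37), CPIJ003160 at 41.2 against 18.1 RPKM (2.27-fold, 2.07 to 2.50) and CPIJ003520 at 20.9 against 9.34 RPKM (2.24-fold, 1.93 to 2.60). CPIJ017393 passed 2-fold in all 4 rescalings, CPIJ003160 in 1 and CPIJ003520 in 0. Their most abundant model, CPIJ008192, had 124 RPKM in molestus and 89.1 RPKM in quinquefasciatus, a ratio of 1.39 (1.31 to 1.47). On the other side of 1 stood CPIJ017886, at 8.02 against 13.3 RPKM (0.603, 0.519 to 0.698), and CPIJ014804, at 6.71 against 8.09 RPKM (0.829, 0.687 to 0.9999). The other 7 had ratios from 1.29 to 1.87.

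RecQ helicases, which unwind recombination intermediates and stalled forks, included the largest fold of all members with at least 50 reads. The model named ATP-dependent DNA helicase Q4 (CPIJ018413), a relative of a human protein that takes part in the start of DNA replication, had 16.8 RPKM from 540 reads in molestus, against 1.23 RPKM from 41 reads in quinquefasciatus, a 13.7-fold difference (9.95 to 19.3). Q5 (CPIJ006071) had 30.1 RPKM from 760 reads against 8.24 RPKM from 216 reads, a 3.65-fold difference (3.14 to 4.27), and Q1 (CPIJ017275) had 31.2 RPKM from 643 reads against 12.2 RPKM from 261 reads, a 2.56-fold difference (2.21 to 2.97). The Werner syndrome helicase (CPIJ007658), of the same family but not split by its description, had 15.4 against 10.7 RPKM, a ratio of only 1.43 (1.24 to 1.64). The RecQ relatives therefore shared a direction and differed in size. Of the 3 helicases that the selection terms left out, both models named recq went the same way, at 3.86-fold (3.24 to 4.61) for CPIJ007409 and 1.85-fold (1.69 to 2.01) for CPIJ007633. So did DNA2 (CPIJ000737), a helicase and nuclease of replication, at 2.62-fold (2.33 to 2.95).

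PIF1, which removes proteins and folded structures from DNA and acts at telomeres in yeast, was represented by CPIJ004811, with 52.5 RPKM from 1026 reads in molestus and 21.0 RPKM from 426 reads in quinquefasciatus, a 2.50-fold difference (2.23 to 2.81). The 2 models named pif1p had at most 8 reads in a library. The Ku subunits, which hold broken DNA ends for joining, moved together. CPIJ011452, described as ATP-dependent DNA helicase 2 subunit, had 13.9 against 4.63 RPKM, a 3.01-fold difference (2.40 to 3.81), and the ku autoantigen CPIJ002893 had 56.8 against 26.1 RPKM, a 2.17-fold difference (1.94 to 2.44). The ku autoantigen model fell under 2-fold in all 4 rescalings.

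Chromodomain helicases, remodellers that slide nucleosomes, held most of the DNA helicase reads, 0.242% of the molestus library (0.239 to 0.245) and 0.0703% of the quinquefasciatus library (0.0687 to 0.0720). CPIJ004665 had 256 RPKM from 14880 reads in molestus, against 47.5 RPKM from 2871 reads in quinquefasciatus, a 5.38-fold difference (5.17 to 5.60). CPIJ001937 had 96.9 RPKM from 5807 reads in molestus, against 46.7 RPKM from 2904 reads in quinquefasciatus, a 2.08-fold difference (1.99 to 2.17) at nearly the same quinquefasciatus level. CPIJ003506, a model of 16272 bases and the longest member, had 19.0 against 8.29 RPKM, a 2.29-fold difference (2.14 to 2.44). All 3 were higher in molestus, and on the log2(RPKM + 1) scale CPIJ004665 passed 2-fold in all 4 rescalings while CPIJ003506 and CPIJ001937 passed in 0.

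The lymphoid specific helicases, a family of nucleosome remodellers that in mouse is needed for DNA methylation, were graded in the same way. CPIJ007687 had 72.3 RPKM from 2183 reads against 17.4 RPKM from 546 reads, a 4.15-fold difference (3.78 to 4.57). CPIJ003115 had 95.9 against 48.3 RPKM, a ratio of 1.99 (1.86 to 2.13), and CPIJ019431 had 28.6 against 17.6 RPKM, a ratio of 1.63 (1.49 to 1.78). The brip1 models, named after a helicase that repairs DNA crosslinks in human cells, split. CPIJ003765 had 57.3 RPKM from 1648 reads in molestus and 8.88 RPKM from 265 reads in quinquefasciatus, a 6.46-fold difference (5.67 to 7.38), while CPIJ001205 had 4.99 RPKM from 128 reads and 7.09 RPKM from 189 reads, a ratio of 0.703 (0.558 to 0.885). The TFIIH helicase subunit (CPIJ018703), part of the complex that opens promoters and excises damage, had 9.03 against 7.37 RPKM, a ratio of 1.23 whose interval held 1 (0.957 to 1.57) and which fell just below 1 after rescaling by the median ratio. With the Werner, lymphoid specific, brip1 and TFIIH models counted as DNA helicases, a choice made after seeing the data, 12 of 17 compared models were at least 2-fold higher in molestus and 0 in quinquefasciatus, with a median of 1.10 (0.98 to 1.75).

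Models named helicase with zinc finger domain, helz, spread over a wider range than any other name. Human HELZ belongs to the same helicase group as the nonsense decay factor Upf1 and acts on mRNA. CPIJ015648 had 115 RPKM from 3202 reads in molestus and 11.3 RPKM from 325 reads in quinquefasciatus, a 10.2-fold difference (9.13 to 11.5). CPIJ001245 had 61.8 RPKM from 1867 reads against 13.9 RPKM from 436 reads, a 4.45-fold difference (4.01 to 4.95), and CPIJ006186 had 52.1 RPKM from 3143 reads against 11.6 RPKM from 727 reads, a 4.49-fold difference (4.14 to 4.87). CPIJ001244 and CPIJ012615 had folds of 3.41 (2.98 to 3.91) and 2.50 (1.999 to 3.13), and CPIJ012615 passed 2-fold in 1 of the 4 rescalings. The 4 of these models with the largest folds ran from 35.4 to 115 RPKM in molestus and lay close together in quinquefasciatus, between 10.4 and 13.9 RPKM.

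One helz model stood on the other side. CPIJ001253 had 3.54 RPKM from 79 reads in molestus and 14.6 RPKM from 340 reads in quinquefasciatus, a ratio of 0.241 (0.186 to 0.309), the lowest of all helicases with at least 50 reads and the only one of them at least 2-fold higher in quinquefasciatus. CPIJ003262 had 2.81 against 4.21 RPKM, a ratio of 0.669 whose interval held 1 (0.433 to 1.02). The senataxin model CPIJ001248, named after a helicase that resolves RNA and DNA hybrids in human cells, had 0 reads in molestus and 18 reads in quinquefasciatus. Set against a floor of 3 reads its level was 5.78-fold lower in molestus, and the exact interval, which adds the counting error of the 18 reads, allowed 4.23-fold. Models of 1 name can share sequence, and reads that match more than 1 of them are not in these counts, so how the reads divide over the helz, p62, Ddx1, brip1, chromodomain and lymphoid specific models is uncertain.

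**Figure D3:**
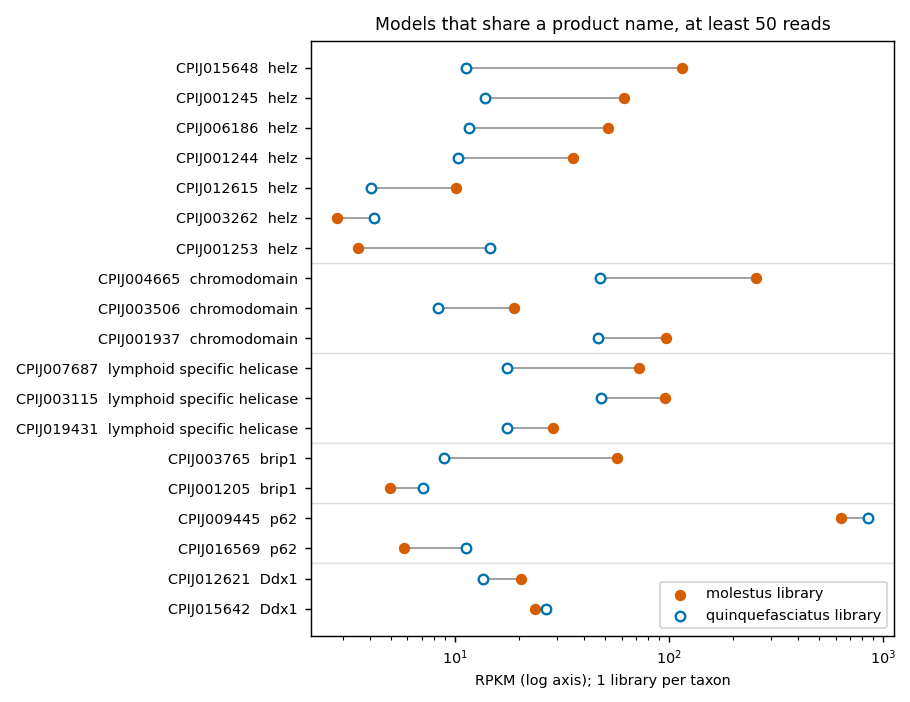
RPKM on a log axis of the helz, chromodomain, lymphoid specific, brip1, p62 and Ddx1 models with at least 50 reads in the higher library. The molestus library is shown as filled points and the quinquefasciatus library as open points. Models that share a description without a gene name, such as the DEAD box models, are not drawn. The helz and brip1 models include members on both sides, the chromodomain and lymphoid specific models all have the filled point to the right, and both p62 models have it to the left.

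Of the 13 models described only as helicase, 11 could be compared, with a median log2 ratio of 0.32 (-0.91 to 1.31). Of these, 3 passed 2-fold towards molestus (27.3%, near the 22.8% of all compared models). In the other direction it was 1 (9.09%, against 18.0% of all). CPIJ011038 had 218 RPKM from 6563 reads in molestus, against 96.4 RPKM from 3013 reads in quinquefasciatus, a 2.26-fold difference (2.17 to 2.36) that fell under 2-fold in 3 of the 4 rescalings. CPIJ011033 had 93.4 RPKM from 2106 reads against 28.3 RPKM from 662 reads, a 3.30-fold difference (3.03 to 3.61). CPIJ019301, a model of 315 bases, had 50 against 19 reads, a 2.73-fold difference (1.58 to 4.91). The description says neither which nucleic acid these models act on nor which step they serve. CPIJ010550, CPIJ015879, CPIJ003293 and CPIJ005981 had ratios of 1.93, 1.52, 1.27 and 1.14, the last of which fell below 1 in 3 of the 4 rescalings, and CPIJ008891 had 0.783 (0.637 to 0.960).

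The 14 members under 50 reads in both libraries carried little information. Of these, 6 were compared, and 2 of those were at least 2-fold higher in molestus, the DEAD box model CPIJ013247 with 26 against 6 reads (4.50-fold, 1.81 to 13.4) and the pif1p model CPIJ009562 with 8 against 1 read (a ratio of 8.31, 1.11 to 369). CPIJ017406 had 0 reads in molestus and 7 in quinquefasciatus and was counted as at least 2-fold higher in quinquefasciatus. Against the floor its level was 2.25-fold lower in molestus, the exact interval allowed 1.39-fold, and with the floor in place of 0 it lost the call. CPIJ010240, with 4 against 18 reads, had a ratio of 0.231 (0.0568 to 0.701) and did not reach 2-fold once the pseudocount was added. For the helz model CPIJ009560, at 0 against 3 reads, no difference was detectable at this depth. Members at 0 reads numbered 3 of 88 in molestus and 0 in quinquefasciatus, against 1364 and 760 of all 16198 models.

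Read coverage along each model, deposited as a percent of its length, played no part in choosing the members. A median of 95.1% of a helicase model was covered in molestus and 94.4% in quinquefasciatus. If reads of 90 bases fell at random along a model, 73 members in molestus and 72 in quinquefasciatus had enough reads for an expected coverage of at least 95% of their length. Of these, 2 members in molestus (2.74%) and 5 in quinquefasciatus (6.94%) were covered at least 25 percentage points less than that, against 14.9% and 14.0% of all models with as many reads. CPIJ008891 fell short in both libraries, with 26.6% of its length covered by 168 reads in molestus and 49.9% covered by 223 reads in quinquefasciatus. Its level therefore speaks for part of the model. The Werner helicase had 90.3% covered in molestus, against 62.9% in quinquefasciatus from 354 reads, and the TFIIH subunit had 83.0% against 73.5%. CPIJ014211 had 87.6% covered in molestus and 65.3% in quinquefasciatus, CPIJ003262 had 72.7% and 64.8%, and CPIJ018961 had 57.2% and 79.7%. Without these 6 members, a choice made after seeing the data, 33 of 74 helicases were at least 2-fold higher in molestus and the median log2 ratio was 0.82.

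**Figure D4:**
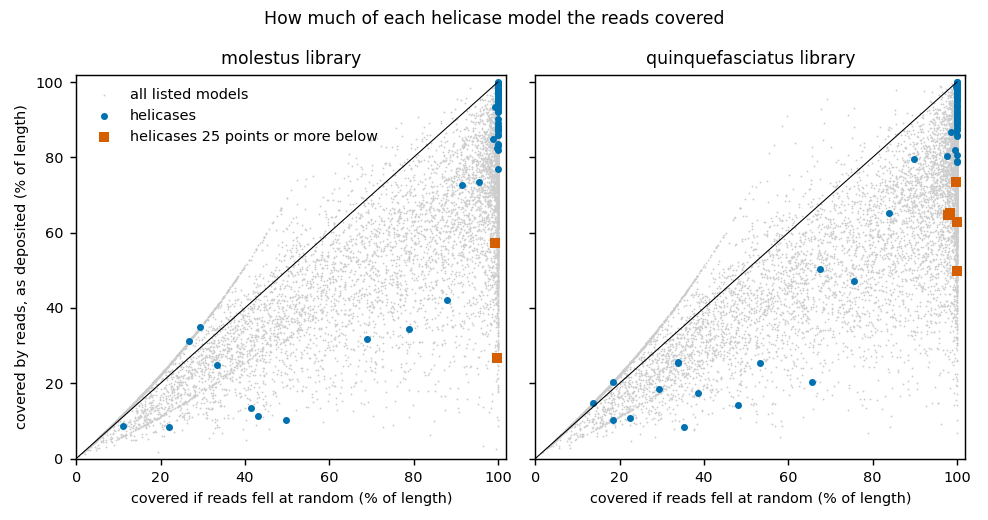
Percent of each model's length covered by reads, as deposited, against the percent expected if its reads fell at random, for molestus (left) and quinquefasciatus (right), with all listed models in grey and helicases in blue. Orange squares mark the 2 members in molestus and 5 in quinquefasciatus that had reads enough for an expected 95% and were covered at least 25 percentage points less than random placement would give.

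Genes that work beside helicases gave a scale for these ratios. The replicative MCM helicase opens DNA ahead of the replication fork. Of 14 compared models matched to the MCM name, 10 were at least 2-fold higher in molestus and 0 in quinquefasciatus, with a median log2 ratio of 2.28 (0.47 to 3.37). The match by name also took in MCM8 (CPIJ005091), at 1.43-fold (1.19 to 1.71). Replication protein A and topoisomerases, which hold and untwist opened DNA, had 5 of 6 and 0 of 6, with a median of 1.23. Chromatin remodelling partners had 4 of 6 and 0 of 6, with a median of 1.20, and NURF301 (CPIJ011284) among them was 5.42-fold higher (5.12 to 5.73). Over all compared models these shares were 22.8% and 18.0%, with a median of 0.18. Lists tied to DNA had medians near or above that of the DNA helicases. On the RNA side, splicing proteins had 15 of 48 higher in molestus and 2 of 48 in quinquefasciatus, with a median of 0.79 (0.50 to 0.96). Nucleolar and ribosome biogenesis proteins had 8 of 31 and 0 of 31, with a median of 0.57 (0.42 to 0.89), and the exosome, which degrades RNA with helicase help, had 0 of 9 either way and a median of 0.44 (0.18 to 0.91). Nonsense-mediated decay had 2 of 11 and 1 of 11, with a median of 0.32 (-0.84 to 1.08). In percent the molestus shares were 31.2% for splicing, 25.8% for nucleolar proteins and 18.2% for nonsense-mediated decay, of which the nucleolar share was near the 22.8% of all models and the decay share below it.

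Initiation factor 4A, a DEAD box helicase that opens mRNA for ribosomes, is described without the word helicase and so was no member, and its models went apart. CPIJ001547 had 1741 RPKM from 29299 reads in molestus and 2628 RPKM from 45931 reads in quinquefasciatus, a ratio of 0.663 (0.653 to 0.672), and its level exceeded that of every member in both libraries. The second model, 4A-6 (CPIJ019131), had 131 against 55.8 RPKM, a 2.35-fold difference (2.11 to 2.62). Initiation factors as first listed, 67 models that include those of transcription, had a median of 0.53, with 17 higher in molestus and 2 in quinquefasciatus. The 43 whose descriptions place them with translation had 0.13 (-0.07 to 0.76), with 7 and 2. Their largest ratios each way were both of models named initiation factor 2C, CPIJ006138 at 4.55-fold (4.17 to 4.97) and CPIJ014791 at 0.147-fold (0.138 to 0.158). The 43 were matched by name alone, and whether each acts in translation, the models named 2C included, was not tested. The piRNA partners, among which germline helicases act, had 6 of 13 higher in molestus and 4 of 13 in quinquefasciatus, with a median of 0.91 whose interval held 0 (-1.16 to 1.59). No description matched vasa, the germline DEAD box gene, and the recq list beyond the members held the 2 models given above, with a median of 1.27.

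**Figure D5:**
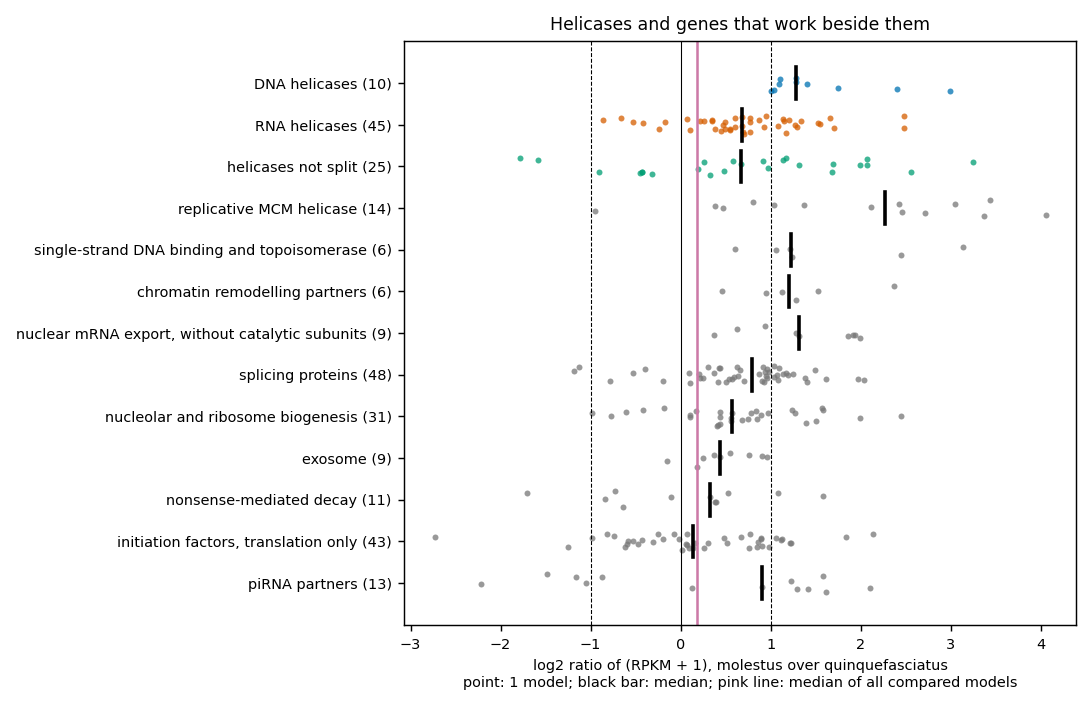
Log2 ratio of (RPKM + 1), molestus over quinquefasciatus, of each compared model in the helicase classes and in lists of genes that work beside them, with black bars at the medians and a pink line at the median of all compared models, 0.18. The DNA helicases lie at or above 1 with a median of 1.29, the RNA helicases centre on 0.69 and the MCM models on 2.28.

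Tissue markers also differed between these whole-body pools, and of the lists below only that of ovary and germline had a median on the molestus side. Fewer cells of a type and less RNA per cell cannot be told apart in such pools. Of 19 ovary and germline models, a list tightened after seeing that its pattern took in sorbitol dehydrogenases, 11 were at least 2-fold higher in molestus and 4 in quinquefasciatus. Their summed levels were 1439 and 489 RPKM, with a median log2 ratio of 1.35 whose interval held 0 (-0.87 to 1.61). As first written the list had 11 and 7 of 25, a median of 0.77 and summed levels of 1598 and 638 RPKM. Its terms piwi, aubergine, tudor and maelstrom are also terms of the piRNA partners above, so the ovary and piRNA lists overlap and are not separate results. No ovary marker was at 0 reads in either library. The largest ratios each way were bicaudal C (CPIJ005456), 15.1-fold higher in molestus (13.3 to 17.1), and a piwi model (CPIJ017382), at 0.197-fold (0.169 to 0.229). Markers of midgut, muscle, eye and antenna leaned to quinquefasciatus. Midgut protease models had 4 models at least 2-fold higher in molestus and 34 in quinquefasciatus of 63, with a median of -1.15 and summed levels of 2444 and 14385 RPKM, and 17 and 9 of 101 listed models at 0 reads. Muscle proteins had 2 and 16 of 32, with a median of -1.01 and summed levels of 1900 and 3289 RPKM, and 1 and 1 of 38 listed at 0. Eye proteins had 4 and 8 of 30, with a median of -0.67, summed levels of 14373 and 29376 RPKM, and 1 and 0 of 34 listed at 0. Odorant binding proteins of the antenna had 0 and 13 of 16, with a median of -1.46, summed levels of 296 and 910 RPKM, and 4 and 0 of 20 listed at 0. Salivary proteins had 2 and 11 of 23, with a median of -0.94 whose interval held 0 (-1.34 to 0.19), summed levels of 1363 and 1352 RPKM, and 14 and 5 of 39 listed at 0. That pattern took in a rad7 model, 1 of the 2, and without it, a choice made after seeing the data, the counts were 1 and 11 of 22 with a median of -0.98. Fat body and yolk proteins had 1 and 1 of 9, with a median of -0.68 whose interval held 0 (-0.94 to 0.0853), summed levels of 560.3 and 446 RPKM, and 5 and 5 of 24 listed at 0. The lists were matched by description, some of their proteins are made in more than 1 tissue, and some matches, such as antichymotrypsin and arrestin domain models, are only relatives of the tissue proteins. The part of these tissue shifts in the helicase ratios was not tested.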

How the data were processed

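Per the labels' protocols, RNA of 30 females per taxon was extracted with TRIzol, pooled, selected for poly(A) and made into non-directional Illumina libraries. For every transcript model the authors deposited a read count of unique matches, the model length, the percent of that length covered and RPKM, per the file headers. Alignment and counting tools and the models' release were not given in the sources used here, and they could move the counts. The counts summed to the totals of 9787340 and 10165903 reads in the headers, and an unlisted model was taken as 0 reads. Without strand, reads of overlapping genes on opposite strands cannot be separated. Of the lengths 89.1% were multiples of 3, as coding lengths are. Reads are PCR products without molecular identifiers, so intervals and floors cover counting error only.

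The tables were joined on model. Ratios used a pseudocount of 1 RPKM and a minimum of 1 RPKM in at least 1 library, and a call was 2-fold. Fold intervals are exact (Clopper-Pearson) from both counts, and list medians have exact order-statistic intervals over members. A count of 0 stayed 0 in the log2 ratios, and a fold against 0 was set against a floor of 3 reads. The read length of 90 bases is the span covered in models with 1 read, and the coverage expected of randomly placed reads was computed from read count, read length and model length. No count test was run, since each taxon has 1 library. The members and lists were chosen with earlier results of these data known. Named were members with at least 50 reads in the higher library, with full values for the 12 most abundant, the 12 with the largest ratio each way and, for each product name, the most abundant and the largest ratio each way; of each other list, its most abundant model and its largest ratios could be named. Rescalings used the median ratio, TMM (edgeR 4.0.16), size factors (DESeq2 1.42.0) and equal totals after removal of the 100 models of highest RPKM in each library. The procedure was tested on simulated counts that held counting error only, so that test says nothing about variation between libraries. Python 3.11.15, numpy 2.4.6, pandas 2.3.3, scipy 1.17.1, matplotlib 3.10.9 and R 4.3.3 were used. No sequence is printed, since the reference table used here holds none.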

Additional observations from a re-analysis of the deposited data

How the results depend on the processing

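No paired analysis was possible because each taxon has 1 library. Where both were recomputed, the helicase median stayed above the median of all models in every alternative, and no helicase count or median changed direction. A pseudocount of 10 gave 20 and 0 helicases higher in molestus and quinquefasciatus with a median of 0.50, RNA helicases 8 higher with a median of 0.44, DNA helicases 4 higher with a median of 0.90, all models 1326 and 618 with a median of 0.0826, and the recq list 0.72. A 4-fold threshold gave 8 and 0 helicases, 2 RNA and 2 DNA helicases, and 615 and 508 of all models. A minimum of 10 RPKM left 1 helicase higher in quinquefasciatus, with 1139 and a median of 0.47 over all models. A floor of 3 reads, and a minimum of 50 reads chosen after seeing the data, also left 1. Without a filter the median of all models was 0.0383. Rescaling by the median ratio gave 20 helicases with a median of 0.50, 7 RNA helicases and 1 the other way with a median of 0.41, 5 DNA helicases with a median of 0.997 and all models -0.0851. It gave 0.15 for the exosome, 0.50 for splicing and 0.28 for nucleolar proteins. TMM, a shift of -0.21, gave medians of 0.57 for helicases, 0.37 for nucleolar proteins and -0.0064 for all models, with 1 RNA helicase higher in quinquefasciatus and 6 DNA helicases higher in molestus. DESeq2 size factors, a shift of -0.13, gave 6 DNA helicases and 0.0591 for all models. Without the most abundant models, a shift of -0.24, the medians were 0.54 for helicases, 0.46 for RNA helicases, 0.33 for nucleolar proteins and -0.0383 for all models, with 9 RNA helicases higher in molestus and 1 in quinquefasciatus and 6 DNA helicases. The tighter patterns, also chosen after seeing the data, gave 0.13 for initiation factors and 1.32 for mRNA export. The cause of these moves was not tested beyond the shift itself. Of the folds of the 79 compared helicases with reads in both libraries, 6 changed side of 1 under the median ratio, 3 under TMM, 2 under DESeq2 size factors and 4 without the most abundant models. The alternative by protein motif was not run. Depth limits the 14 members under 50 reads, and 1 library per taxon limits every comparison.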
